A study of Mus musculus with 6 samples.

Results

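The genes described are 9 genes of glycogen metabolism: Pygm, Pygb, Pygl, Gys1, Gbe1, Gyg, Phka1, Phka2 and Phkb. Every non-control probe that carries one of these names in the array files was taken, which gave 14 of 55681 probes and 9 of the 22942 genes that the probes could be matched to. Pygm was chosen by its difference between GapmeR Ntep and GapmeR control on these same arrays, and the other genes were listed beside it with results of the arrays known. The values of the 9 genes are therefore given as a description, without p-values, and the count of their calls is given once beside that of all probes.

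Glycogen is the branched glucose store of animal cells. It is started by the primer protein glycogenin (Gyg), lengthened by glycogen synthase (Gys1 outside the liver) and branched by the branching enzyme (Gbe1), and glycogen phosphorylase releases glucose 1-phosphate from it. Separate genes encode the muscle (Pygm), brain (Pygb) and liver (Pygl) isozymes of phosphorylase, and phosphorylase kinase, whose regulatory subunits come from Phka1, Phka2 and Phkb, switches the isozymes on.

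RNA came from cultures of 3T3, a mouse fibroblast line, 48 h after transfection with either GapmeR Ntep or GapmeR control, each at 50 nM. GapmeRs are antisense oligonucleotides through which RNase H cuts a chosen RNA, here the lncRNA Ntep. GapmeR Ntep was a single sequence and GapmeR control a single negative control sequence, so effects of the one sequence and of Ntep itself cannot be told apart. Each of 3 independent experiments gave 1 array per label, 6 arrays in all, and the signals below are background-subtracted scanner intensities after quantile normalization, in intensity units, with values under 20 set to 20.

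The single probe of Ntep, which the files name A630089N07Rik, lies on chromosome 16 of mm9 at bases 98283712 to 98283771. In experiments 1, 2 and 3 the signal was 472, 91.5 and 226 under the label GapmeR Ntep and 271, 272 and 361 under the label GapmeR control. The arrays overlapped, and experiment 1 went against its label. The log2 difference was -0.48 (SE 0.58, limma adjusted p = 0.632), and a two-sided exact permutation test gave p = 0.7, where 3 against 3 arrays cannot go below 0.1. Without GapmeR Ntep replicate 2 the difference turned to 0.13. Arrays are therefore called by their labels. Between 43.7% and 53.3% of probes were well above background per array, and no probe was saturated. Of 12 fibroblast markers, 11 were well above background on all 6 arrays.

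Pygm was covered by 1 probe, at bases 6398389 to 6398448 on the plus strand of chromosome 19 in mm9, and none of the 6 arrays had it near background. The signal was 3612, 1671 and 1532 on the GapmeR Ntep arrays of experiments 1, 2 and 3. On the GapmeR control arrays it was 294, 149 and 134, where the lowest signals well above background were 41.6, 58.1 and 55.3. All 3 GapmeR Ntep arrays lay above all 3 GapmeR control arrays, and experiment 1 gave the highest signal under both labels. The group means were 2272 ± 1163 and 192 ± 87.9 (SD, n = 3 each), the signal differed 12.3-fold, 11.2-fold and 11.4-fold within the experiments, and the mean log2 difference was 3.54 (SE 0.45), an 11.6-fold higher level. With normexp background correction the log2 difference was 2.81. Of 30990 tested probes, meaning those whose mean signal reached 50 under at least 1 label, 44 had a larger difference upwards, and 9 had one among the 22647 that were well above background on all 6 arrays. The median over all tested probes was 0.06.

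The sequence before the annotated start of Pygm is shown because Pygm was the 1 member with all GapmeR Ntep arrays above all GapmeR control arrays. Those of Gbe1 and Phkb stand beside it because their brightest probes differed most in the other direction. They are the 250 bases before the RefSeq start in GRCm38.p6, on the gene's strand, at chr19:6384158-6384407 (plus strand), chr16:70313699-70313948 (plus strand) and chr8:85840738-85840987 (plus strand). Capitals mark CAGCTG, the palindromic E-box core that myogenic factors such as Myog bind.
Pygm: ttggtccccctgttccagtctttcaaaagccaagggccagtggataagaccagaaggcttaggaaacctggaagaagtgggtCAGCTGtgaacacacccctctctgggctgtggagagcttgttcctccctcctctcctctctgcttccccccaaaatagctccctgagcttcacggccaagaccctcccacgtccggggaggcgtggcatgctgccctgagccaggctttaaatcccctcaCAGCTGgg
Gbe1: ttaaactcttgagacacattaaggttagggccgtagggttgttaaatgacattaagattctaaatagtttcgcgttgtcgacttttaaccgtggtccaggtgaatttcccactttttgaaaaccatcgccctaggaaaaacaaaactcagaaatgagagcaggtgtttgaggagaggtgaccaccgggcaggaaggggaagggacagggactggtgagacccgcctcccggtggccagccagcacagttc
Phkb: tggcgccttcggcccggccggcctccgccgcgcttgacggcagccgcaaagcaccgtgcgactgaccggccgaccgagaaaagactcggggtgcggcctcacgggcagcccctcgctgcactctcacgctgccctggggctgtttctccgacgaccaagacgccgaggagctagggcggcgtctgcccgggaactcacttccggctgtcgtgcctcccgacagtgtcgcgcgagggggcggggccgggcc

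The Pygm window held CAGCTG at 2 places, the first bases of which lie 168 and 8 bases before the start. The windows of Gys1 and Phka1 held it too, so 3 of the 9 members had a match, and 13% of all 32851 RefSeq promoter windows of this length have one. GGGCGG, the GC box, matched in 6 of the 9 members, Pygm, Pygb and Gbe1 being the others, and in 32.7% of all windows. CCAAT matched in Gys1 alone (33.8% of all windows). No member window held CACGTG (6.02% of all windows), TGACGTCA (1.55%), TGANTCA (6.75%), TATAAA (12.4%), a MEF2 site (0.508%) or a CArG box (1.47%). Both strands were searched, N stands for any base, and a match is a run of letters and not a bound site. GC content of the windows was 58.4% for Pygm, 48.8% for Gbe1 and 73.2% for Phkb, where the median of all windows was 52.4%.

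Pygb did not share the difference of Pygm, and Pygl could not be measured. Pygb, the brain isozyme, gave signals of 1579, 4149 and 2954 on the GapmeR Ntep arrays of experiments 1, 2 and 3 against 1848, 4020 and 3470 on the GapmeR control arrays. The labels overlapped, with a log2 difference of -0.14 (SE 0.46) and differences of -0.23, 0.05 and -0.23 within the experiments. The probe of Pygl, the liver isozyme, was not well above background on any array. Its signal was at the floor of 20 on the 3 GapmeR Ntep arrays and between 20 and 38 on the GapmeR control arrays, so no fold is given. The contrast between the isozymes rests on 1 probe per gene, and signals of different probes are not set against each other.

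**Figure D1:**
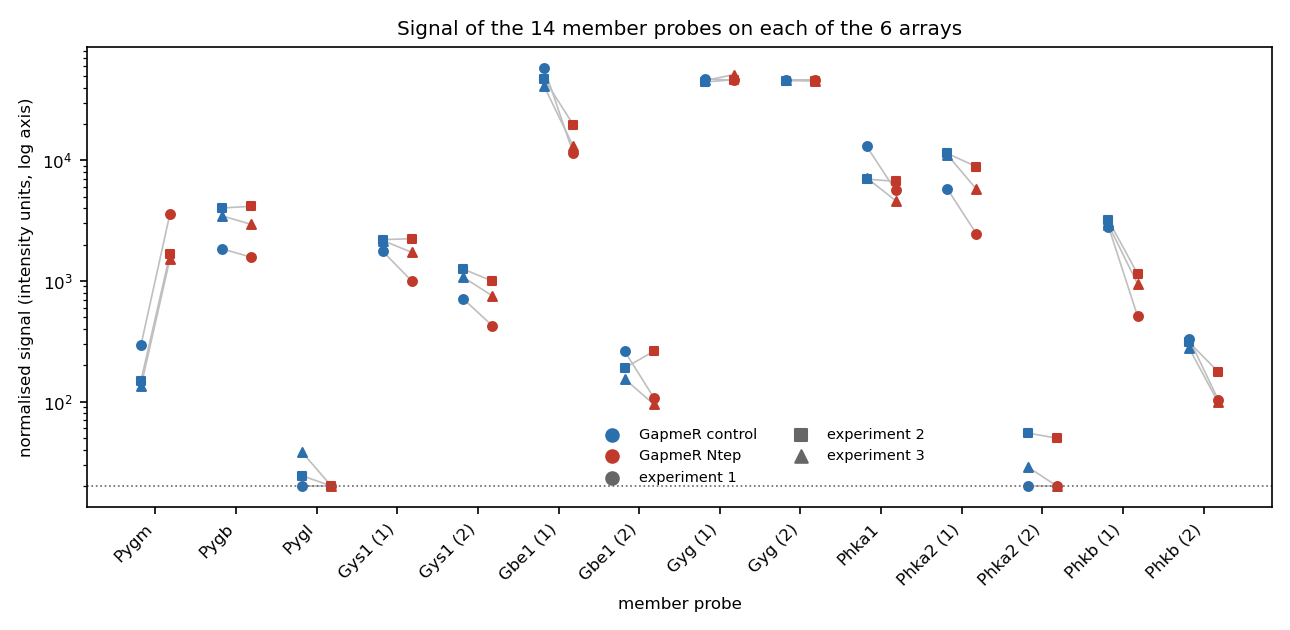
Normalised signal (log axis, intensity units) of each of the 14 member probes on the 3 GapmeR control arrays (blue) and the 3 GapmeR Ntep arrays (red), with a grey line joining the arrays of an experiment and the floor of 20 dotted; numbers in brackets tell the probes of a gene apart. The 3 GapmeR Ntep values of Pygm (1532 to 3612) lie above its GapmeR control values (134 to 294), and those of the first Gbe1 probe and of both Phkb probes lie below.

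Among the synthesis genes, the branching enzyme gene Gbe1 was lower on its brighter probe, both Gys1 probes overlapped with mean differences below 0, and Gyg was near its control level. The brighter Gbe1 probe (mm9, chromosome 16, 70569840 to 70569899) gave 11501, 19758 and 13108 on the GapmeR Ntep arrays against 58244, 47277 and 41072 on the GapmeR control arrays. Every GapmeR Ntep array lay below every GapmeR control array, at means of 14789 ± 4378 and 48864 ± 8695 (SD, n = 3 each). The log2 difference was -1.75 (SE 0.27), and the level was 5.06-fold, 2.39-fold and 3.13-fold lower within the experiments.

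A second Gbe1 probe, which starts 208613 bases before the first and nearer the gene's start, differed from it. It gave 108, 261 and 95.1 on the GapmeR Ntep arrays against 261, 190 and 154 on the GapmeR control arrays. These overlapped, with a log2 difference of -0.50 (SE 0.44) that was positive in experiment 2 (0.45) and negative in experiments 1 and 3 (-1.27 and -0.70). The probes of Gbe1 therefore disagree in size by 1.25 on the log2 scale, and which transcripts each of them reads was not tested.

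Gys1, glycogen synthase, had 2 probes whose starts lie 632 bases apart. The brighter one gave 996, 2239 and 1725 on the GapmeR Ntep arrays against 1755, 2200 and 2161 on the GapmeR control arrays. The other gave 424, 998 and 751 against 708, 1250 and 1070. Both overlapped between the labels, with log2 differences of -0.37 (SE 0.33) and -0.53 (SE 0.38). Within experiments, 5 of the 6 Gys1 differences were below 0 and 1 was 0.03. Gyg, glycogenin, had 2 probes that start 15 bases apart and so share most of their target. Its brighter probe lay between 45991 and 51334 on the GapmeR Ntep arrays and between 44533 and 47277 on the GapmeR control arrays. The log2 differences of 0.06 and -0.01 (SE 0.15 each) were the smallest among the 12 member probes that passed the signal filter, and they became 0.26 and 0.17 under 75th percentile scaling, which moved the median of all tested probes to 0.22.

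The regulatory subunit genes of phosphorylase kinase all had lower means on the GapmeR Ntep arrays, Phkb by the most. Phkb encodes the beta subunit. Its brighter probe (mm9, chromosome 8, 88583860 to 88583919) gave 513, 1148 and 946 on the GapmeR Ntep arrays against 2825, 3177 and 2914 on the GapmeR control arrays. The other Phkb probe, whose start lies 30401 bases earlier, gave 104, 177 and 98.9 against 331, 310 and 277. On both probes the labels did not overlap, and the log2 differences were -1.85 (SE 0.32) and -1.32 (SE 0.27), 3.61-fold and 2.50-fold lower. Experiment 1 gave the largest difference on either probe (-2.46 and -1.67) and experiment 2 the smallest (-1.47 and -0.81).

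The alpha subunit genes differed less. Phka1, the alpha subunit of muscle, gave 5618, 6689 and 4626 on the GapmeR Ntep arrays against 13056, 6978 and 7157 on the GapmeR control arrays. The labels did not overlap, but the highest GapmeR Ntep array (6689) lay close under the lowest GapmeR control array (6978), and the log2 difference was -0.64 (SE 0.31). Phka2, the alpha subunit of liver, gave 2468, 8870 and 5778 against 5812, 11377 and 11116. Those overlapped, with a log2 difference of -0.85 (SE 0.53) and a lower value in each of the 3 experiments (-1.24, -0.36 and -0.94). A second Phka2 probe was well above background on 1 array and stayed under the mean signal of 50.

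**Figure D2:**
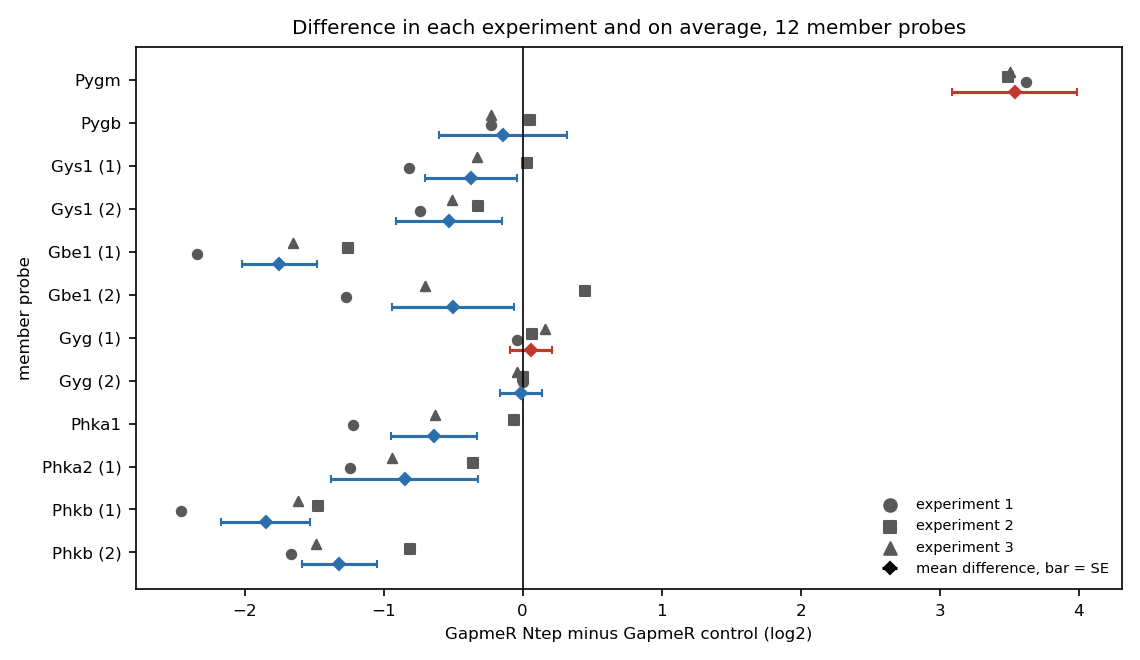
Log2 difference between GapmeR Ntep and GapmeR control of the 12 member probes that passed the signal filter, as the value of each experiment (grey symbols) and as the mean difference with its SE over n = 3 arrays per label (diamonds and bars). The SE is from the limma fit without pairing by experiment, so it includes the spread between experiments. The 3 experiments of Pygm lie between 3.49 and 3.62, whereas the 6 values of Phkb lie between -2.46 and -0.81.

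Across the members, 12 of the 14 probes passed the signal filter, 2 with a mean difference above 0 and 10 below. Probes were called at an adjusted p under 0.05, or at a fold change of at least 2 with an unadjusted p under 0.01. In the fit over all tested probes, 8.68% of probes were called, 3.39% higher and 5.3% lower. Among the member probes 1 was called higher (Pygm) and 3 lower (Gbe1, and Phkb with both probes). The second Phkb probe lost its call without GapmeR Ntep replicate 3, without GapmeR control replicate 1 or without GapmeR control replicate 2, and the other 3 probes were called without each array in turn. By gene, with the brightest probe for each, 1 of the 8 genes that passed the filter was called higher and 2 lower, where 3.65% and 6.22% of all 15242 tested genes were. The labels did not overlap for 1 member probe upwards and 4 downwards, where this held for 17% and 15.1% of all tested probes. Since these genes were chosen with their differences known, the counts describe them and nothing is read from them. The median over the 12 member probes was -0.52, and within experiments it was -1.02, -0.03 and -0.57, where the medians of all tested probes were 0.03, 0.05 and 0.03. The median of the member probes was thus smallest in size in experiment 2. A relation of the member differences to the signal of the Ntep probe was not tested. The 3 differences of Pygm lay between 3.49 and 3.62.

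**Figure D3:**
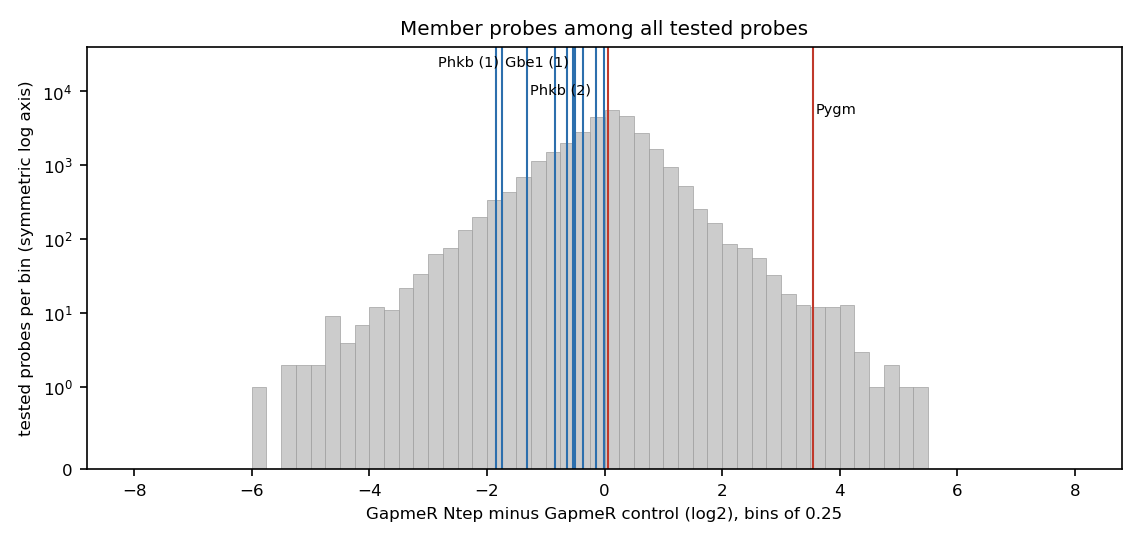
Number of tested probes (symmetric log axis) in bins of 0.25 of the log2 difference between GapmeR Ntep and GapmeR control, with the 12 member probes that passed the signal filter as lines (red above 0, blue below 0). Pygm at 3.54 lies in the upper tail, beyond which 44 of 30990 probes lie, and Phkb at -1.85 and Gbe1 at -1.75 lie on the lower flank.

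The rest of the pathway was read from a list of 59 other genes, 58 of which had a probe and 46 of which were tested by their brightest probe. Of these 4 were called higher and none lower, where 3.65% of all tested genes were called higher and 6.22% lower. The list's median log2 difference was -0.06, with 21 genes above 0 and 25 below, against 0 over all tested genes. The 4 called genes were Prkab1 and Prkab2, which encode the beta subunits by which AMP-activated kinase binds glycogen, Prkar1b, a regulatory subunit of cyclic AMP-dependent kinase, and Gabarapl1, an autophagy protein that the glycogen receptor Stbd1 binds. With the experiments as a block, 9 genes of the list were called, 4 higher and 5 lower, where 7.41% and 9.79% of all tested genes were. The count was 1 without GapmeR Ntep replicate 1 and 2 without GapmeR Ntep replicate 3 or without GapmeR control replicate 2 or 3.

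Prkab1 gave 1325, 2112 and 1585 on the GapmeR Ntep arrays of experiments 1, 2 and 3 against 538, 824 and 728 on the GapmeR control arrays. Prkab2 gave 1834, 1597 and 1404 against 847, 813 and 885. Neither overlapped between the labels. The log2 difference was 1.26 for Prkab1 (SE 0.26, limma adjusted p = 0.0513, called by its fold and unadjusted p) and 0.92 for Prkab2 (SE 0.17, limma adjusted p = 0.0424). Leaving out 1 array ended the call of Prkab1 only without GapmeR Ntep replicate 3 and that of Prkab2 without any array but GapmeR Ntep replicate 3 (limma adjusted p 0.0707 to 0.164 and 0.0697 to 0.18 over the 6 omissions). Of the catalytic alpha subunits of the same kinase, Prkaa1 differed by -0.54 without a call in the unpaired fit (SE 0.16, limma adjusted p = 0.113), and Prkaa2 was at the floor on all arrays. Prkaa1 was called lower with normexp background correction (-0.56, limma adjusted p = 0.0421) and with an intensity trend (limma adjusted p = 0.05). The gamma subunit genes Prkag1 and Prkag2 differed by 0.03 (SE 0.18) and -0.11 (SE 0.23).

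Gabarapl1 gave 129259, 114956 and 131266 on the GapmeR Ntep arrays against 57640, 72699 and 67762 on the GapmeR control arrays, which did not overlap. Its log2 difference was 0.93 (SE 0.17, limma adjusted p = 0.0412), and the call was lost without each single array (limma adjusted p 0.0575 to 0.156). Without a filter on dim probes and with the methods' t-test, neither Gabarapl1 nor Prkab2 was called, and Prkab2 was not called with 75th percentile scaling (limma adjusted p = 0.0571). Stbd1, which tethers glycogen to membranes, differed by 0.34 (SE 0.17) and Gaa, the acid glucosidase of lysosomes, by -0.29 (SE 0.20), neither past the test. Prkar1b gave 230, 194 and 170 against 79.5, 107 and 110, again without overlap. Its log2 difference was 1.00 (SE 0.22, limma adjusted p = 0.0547), called by fold and unadjusted p. That call was lost without GapmeR Ntep replicate 1 or 2, without GapmeR control replicate 1, with the experiments as a block and with normexp background correction. Prkar2a, another regulatory subunit, also differed by 1.00 (SE 0.24, limma adjusted p = 0.0703) but stayed just under the fold limit, and it was called with the experiments as a block (limma adjusted p = 0.0373), as well as with normexp background correction, an intensity trend, 75th percentile scaling and a fit limited to probes with signal above background on every array. The catalytic subunit genes Prkaca and Prkacb differed by -0.12 (SE 0.32) and 0.17 (SE 0.18), and the brightest probe of Prkar1a by 0.42 (SE 0.21, limma adjusted p = 0.289). A second Prkar1a probe had the opposite sign, at -0.81 without overlap (SE 0.21, limma adjusted p = 0.0781), so the probes of that gene disagree. Prkar2b, named after its values were seen, differed by -0.65 on its brightest probe (SE 0.20, limma adjusted p = 0.111) and by -0.33 and -0.73 on its other probes, none with overlap, and was called lower with an intensity trend (limma adjusted p = 0.0398). The beta-adrenergic receptor genes Adrb1 and Adrb3 were not well above background on any array.

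By their brightest probes, genes of the remaining roles passed no call in the unpaired fit. Gys2, the synthase of liver, was well above background on 1 array. Among the kinase's catalytic subunits and calmodulins, Phkg2 differed by -0.10 (SE 0.18) and Calm2 by -0.10 (SE 0.17), and Phkg1, the gamma subunit of muscle, was not well above background on any array. The hexokinase genes Hk1 and Hk2 differed by 0.32 and 0.26 (SE 0.20 each), and Hk3 was not well above background on any array. The phosphatase subunit genes Ppp1ca, Ppp1cb and Ppp1cc differed by 0.02 (SE 0.17), -0.55 (SE 0.19, limma adjusted p = 0.143) and 0.06 (SE 0.17), and Ppp1r3a was well above background on 1 array. Epm2a and Nhlrc1, whose products remove phosphate from glycogen and tag its regulators with ubiquitin, were not well above background on any array.

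The synthase kinases showed a disagreement between probes. The brightest probe of Gsk3b, glycogen synthase kinase, differed by -0.48 (SE 0.23, limma adjusted p = 0.266), while a dimmer probe of the gene was called higher, at 1.08 (limma adjusted p = 0.0326). A further probe lay at -1.22 (SE 0.42, limma adjusted p = 0.147), without overlap and opposite in sign, so no direction is given for Gsk3b. Gsk3a differed by 0.38 (SE 0.16, limma adjusted p = 0.225) and Dyrk1a by 0.91 (SE 0.32, limma adjusted p = 0.152), both without overlap. The brightest probe of Csnk2a1 differed by -0.30 (SE 0.47). Its other probes had the opposite sign, at 0.49 without overlap (limma adjusted p = 0.136), 0.38 and 0.10, so no direction is given for Csnk2a1 either.

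The 3 glucose transporter genes of the list lay below 0, and none was called in the unpaired fit. Slc2a1, the common glucose transporter of cultured cells, gave 61112, 70776 and 58892 on the GapmeR Ntep arrays against 129161, 101532 and 96666 on the GapmeR control arrays. It did not overlap between the labels, at a log2 difference of -0.77 (SE 0.19, limma adjusted p = 0.072). It was called lower when only probes well above background on all arrays were kept (limma adjusted p = 0.0436) and with an intensity trend (limma adjusted p = 0.0234). Slc2a4, the insulin-responsive transporter of muscle and fat, gave 97.9, 352 and 190 against 208, 662 and 830, a log2 difference of -1.38 (SE 0.68, limma adjusted p = 0.268). It was called with the experiments as a block by its fold and unadjusted p (limma adjusted p = 0.0567). Slc2a3 differed by -1.95 (SE 1.11, limma adjusted p = 0.329) with signals from the floor up to 393. G6pc3 differed by -0.74 (SE 0.22, limma adjusted p = 0.108) and Slc37a4 by 0.32 (SE 0.26), and G6pc and G6pc2 were not well above background on any array.

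With the experiments as a block 4 further genes were called lower, and they are named for that reason, after their values were seen. They were Ppp1r3c (-1.50, limma adjusted p = 0.0503) and Ppp1r3d (-1.17, limma adjusted p = 0.0503), which bring phosphatase 1 to glycogen, and Pgm2l1 (-0.98, limma adjusted p = 0.0484) and Pgm5 (-1.50, limma adjusted p = 0.0462) of the phosphoglucomutase family. Ppp1r3c gave 20, 191 and 66.7 on the GapmeR Ntep arrays against 42.5, 426 and 322 on the GapmeR control arrays. It was lower in each experiment while the labels overlapped across experiments, and it was well above background on 1 GapmeR Ntep array and 2 GapmeR control arrays. Pgm5 gave 37.4, 50 and 20 against 68, 148 and 84.2 and was well above background on 1 GapmeR Ntep array. Its mean reached 50 on the GapmeR control arrays alone (100 against 35.8), so its call depends in part on the signal filter. A dimmer Pgm5 probe lay at 0.82 (SE 0.68), where GapmeR Ntep replicate 3 gave 111 and every other array was at the floor. The remaining Pgm5 probe was at the floor on all arrays.

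Since Pygm is the muscle isozyme, 30 other genes typical of skeletal muscle were read beside it. Most did not lie in its direction. Of the 18 tested, 14 lay below 0 and 4 above, with a median log2 difference of -1.07. Ckm, Myl1, Actn3 and Mb reached the mean signal of 50 on the GapmeR control arrays alone. Myh8, at means of 46.7 on GapmeR Ntep and 20 on GapmeR control, was left out. The split and the median therefore depend in part on the signal filter. Of these 3 were called lower and none higher, where 6.22% and 3.65% of all tested genes were: Myog, the transcription factor myogenin, Myl1, a myosin light chain, and Ryr1, the calcium release channel of the sarcoplasmic reticulum. With the experiments as a block 5 were called, 4 lower and 1 higher, where 9.79% and 7.41% of all tested genes were. Leaving out GapmeR Ntep replicate 1 or 3, or GapmeR control replicate 2 or 3, left 1 call, leaving out GapmeR Ntep replicate 2 gave 5 and leaving out GapmeR control replicate 1 gave 9.

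Myog gave 20, 90.6 and 39.5 on the GapmeR Ntep arrays against 149, 514 and 424 on the GapmeR control arrays, without overlap, and was well above background on 1 GapmeR Ntep array. Its log2 difference was -2.94 (SE 0.70, limma adjusted p = 0.0661), and with normexp background correction it was -1.48 (limma adjusted p = 0.0762). The call was lost without 4 of the 6 arrays. Those were GapmeR Ntep replicates 1 and 3 and GapmeR control replicates 2 and 3. Ryr1 gave 32.4, 84.3 and 54.7 against 197, 270 and 260, also without overlap, and was well above background on 1 GapmeR Ntep array. Its log2 difference was -2.18 (SE 0.37, limma adjusted p = 0.0361), and it was called without each array in turn (limma adjusted p 0.039 to 0.153). Where the adjusted p was not under 0.05, the call rested on fold and unadjusted p. With normexp background correction the log2 difference of Ryr1 was -0.98 (limma adjusted p = 0.0227). Myl1 was at the floor on the GapmeR Ntep arrays and at 33.1, 124 and 133 on the GapmeR control arrays (limma adjusted p = 0.0869). It was well above background on 2 GapmeR control arrays. The call held only without GapmeR control replicate 1 when 1 array was left out. It was also lost with the experiments as a block, normexp background correction, the authors' normalized values and an intensity trend. Neither Myog nor Myl1 was called without a filter on dim probes, with the methods' t-test or with a variance prior over all probes. With each GapmeR Ntep array set at the lowest signal that was well above background there, Myl1 was 1.58-fold lower on average. In experiment 1 that signal was 47, above the GapmeR control signal of 33.1, so no lower level is shown there.

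Of the 30 muscle genes, 10 were not well above background on any array, among them the myogenic factors Myod1, Myf5 and Myf6, and Mef2c. Acta1, the skeletal actin, lay in the direction of Pygm. It gave 1692, 825 and 919 on the GapmeR Ntep arrays against 995, 436 and 428 on the GapmeR control arrays, which overlapped across experiments, a log2 difference of 0.93 (SE 0.44, limma adjusted p = 0.255). With the experiments as a block it was called (limma adjusted p = 0.0389), as were Mybpc2 (-2.01, limma adjusted p = 0.0344) and Actn3 (-1.71, limma adjusted p = 0.0463), which encode a myosin-binding protein and an alpha-actinin of fast muscle. These 3 genes are named after their values were seen. The summed signal of the 30 genes was 47255 to 76447 on the GapmeR Ntep arrays and 113108 to 118799 on the GapmeR control arrays, of which Eno3, the muscle enolase, gave 29723 to 52705 and 63075 to 96933. Eno3 itself was not called (limma adjusted p = 0.191). In RNA from whole cultures, fewer cells of a type and less RNA per cell cannot be told apart.

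**Figure D4:**
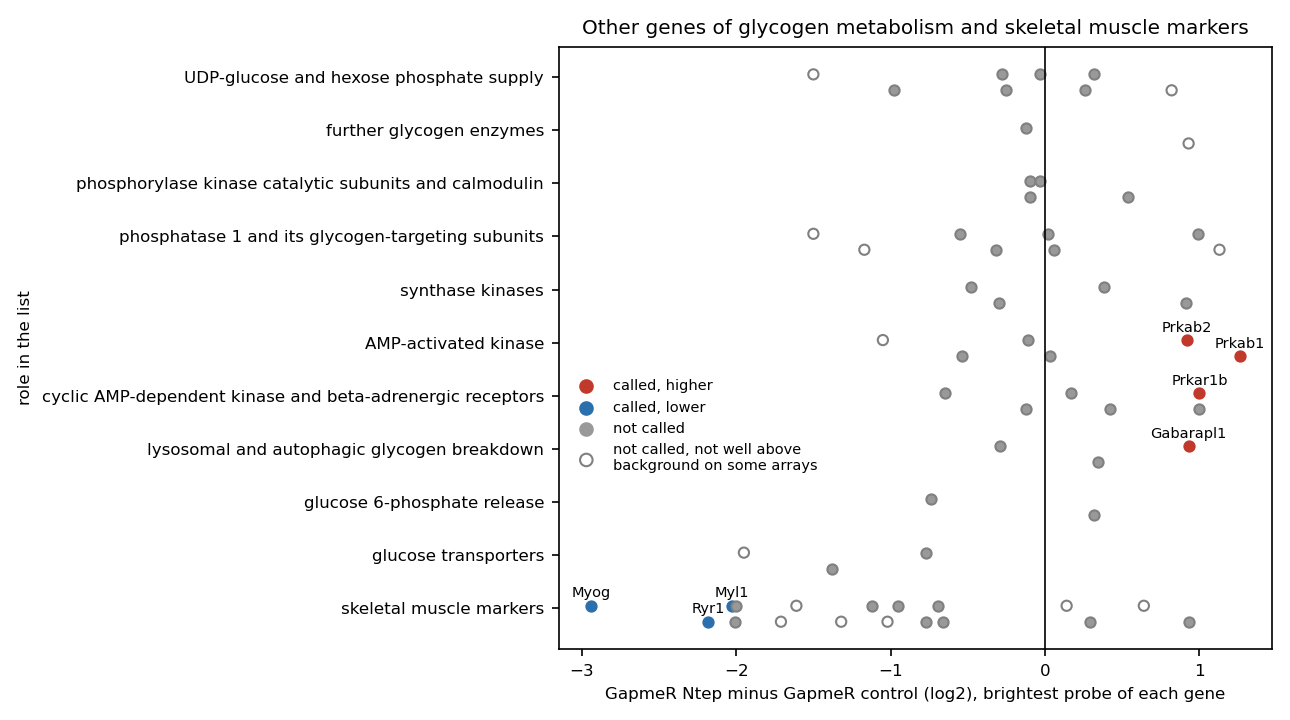
Log2 difference between GapmeR Ntep and GapmeR control of the tested genes of the glycogen list, by role, and of the muscle markers, each by its brightest probe (1 point per gene; filled colours are called genes, open points were not well above background on some arrays). The 4 called glycogen genes lie between 0.92 and 1.26, and the called muscle markers Myog and Ryr1 lie at -2.94 and -2.18; Myl1 is drawn with its GapmeR Ntep values at the floor.

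Some markers of other cell types differed between the labels beside these results. The summed signal of 8 macrophage markers was 42456 to 75236 on the GapmeR Ntep arrays and 19934 to 27404 on the GapmeR control arrays. Itgam gave 19443 to 45777 and 10652 to 14655 of it. Cd68 was called higher (log2 difference 1.21, limma adjusted p = 0.0287). So was Cd14 (1.11), by fold and unadjusted p, where 3.65% of all tested genes were called higher. The brightest probe of Csf1r differed by 3.19 with overlap (limma adjusted p = 0.151), and Lyz2 differed by -0.18. The defining markers Adgre1, Ptprc and Fcgr1 were not well above background on any array. The summed signal of 6 neural markers was 17830 to 42642 against 8729 to 12015, of which Snap25 alone gave 16310 to 40165 and 7464 to 10756. Tubb3 differed by 0.62 on the log2 scale without overlap (limma adjusted p = 0.233), and Gfap and Aqp4 by 0.33 and 0.07. Map2 and Syt1 were not well above background on any array. The summed signal of 5 adipocyte markers was 1628 to 6659 against 658 to 926, of which Fabp4 alone gave 1495 to 6498 and 549 to 722. Cfd differed by -0.17 and Plin1 by -0.83, the latter near the floor, and Lep was at the floor on all arrays. The fibroblast sum was 598225 to 789940 against 858206 to 943105, and that of 6 hepatocyte markers 160 to 167 against 161 to 209, near the floor. Snap25 (log2 difference 1.46) and Fabp4 (2.12) were also called higher, by fold and unadjusted p. The part of these markers in the differences of the glycogen genes was not tested.

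The genes next to Pygm on chromosome 19 did not show its difference. The nearest 4 genes with a tested probe on each side were Sf1, Map4k2, Men1 and Cdc42bpg before it and Rasgrp2, Nrxn2, Rps6ka4 and Ccdc88b after it. None of the 8 was called by limma, and 2 had an unadjusted p under 0.05, where 25% of all tested probes had one. The difference was 0.17 (SE 0.17) for Sf1, the splicing factor gene nearest before Pygm, and 0.46 (SE 0.48) for Rasgrp2, a Rap activator gene nearest after it. Rasgrp2 gave 408, 161 and 127 on the GapmeR Ntep arrays against 112, 188 and 153 on the GapmeR control arrays and was higher in experiment 1 alone. The others were -0.09 for Map4k2, 0.51 for Men1, 0.43 for Cdc42bpg, -0.03 for Rps6ka4 and -0.68 for Ccdc88b, and Nrxn2 differed by -0.41, -0.90 and -1.68 within the experiments (limma adjusted p = 0.171). Of the 8 genes, Men1 had the smallest limma adjusted p, 0.15. Without GapmeR Ntep replicate 1, Nrxn2 was called lower (-1.38, limma adjusted p = 0.0669).

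The probes most like Pygm were sought by the root mean square distance between log2 profiles over the 6 arrays, each centred on its own mean, among 22646 other probes that were tested and well above background on all arrays. Among the nearest were those of a transcript that the files name only ENSMUST00000108435 (distance 0.28), of Rab10os (0.28), of the predicted gene Gm3923 (0.37) and of Emilin2, an extracellular matrix glycoprotein (0.41). The Pygm profile itself has a root mean square of 1.85 about its mean. Rab10os gave 35511, 13361 and 22294 on the GapmeR Ntep arrays against 2607, 1251 and 1231 on the GapmeR control arrays. As for Pygm, experiment 1 was highest under both labels. The log2 differences of these 4 ran from 3.06 (Emilin2) to 3.98, on both sides of that of Pygm, and since the search selects on the same contrast they are given without a test.

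By RefSeq gene length, the members with the lowest values on their brightest probes were the longest. Pygm spans 14.1 kb, Gys1 21.8 kb, Gyg 33 kb and Pygb 45 kb, followed by Phka2 with 97 kb, Phka1 with 130 kb, Phkb with 223 kb and Gbe1 with 256 kb. Over all tested genes the median log2 difference was 0.05 under 25 kb and also 0.05 from 25 to 50 kb. It was -0.07 from 50 to 100 kb, -0.30 from 100 to 200 kb and -0.55 over 200 kb. By their brightest probes, Phkb and Gbe1 lay below the lower quartile of the longest class (-1.19), and Phka1 lay within the quartiles of its class (-0.81 to 0.15). The second Gbe1 probe, at -0.50, lay within the quartiles of the longest class (-1.19 to 0.07). Phka2 lay below the lower quartile of its class (-0.48). Pygm lay far above the upper quartile of the shortest class (0.44). The part of gene length in these values was not tested.

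**Figure D5:**
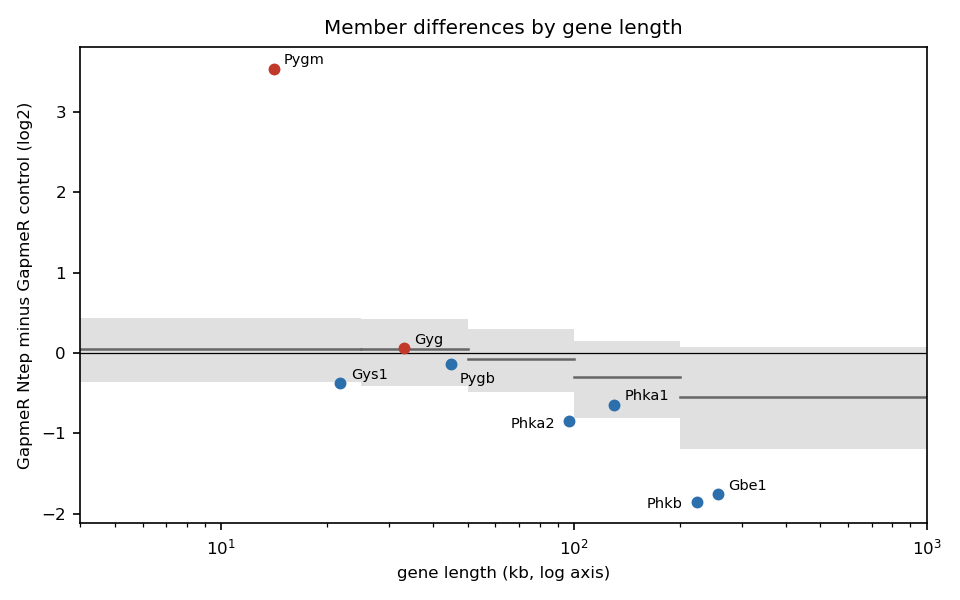
Log2 difference between GapmeR Ntep and GapmeR control of the 8 members that passed the signal filter, by their brightest probe, against RefSeq gene length (log axis, kb); grey bands are the quartiles and grey lines the medians of all tested genes in 5 length classes. Gbe1 and Phkb, the longest members, lie below the band of genes over 200 kb, and Pygm at 14.1 kb lies above its band.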

How the data were processed

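The authors scanned 6 Agilent mouse arrays in 1 color and deposited, per array, background-subtracted intensities from Feature Extraction 10.7.3.1, without normalization across arrays. A further deposited table holds quantile-normalized intensities with a floor of 20. Replicate numbers were read from the study's supplementary list, which also pairs arrays by experiment. Residuals of arrays with the same number correlated at 0.466, 0.300 and 0.254, and of other pairs at -0.327 to 0.126, so the numbers were taken to pair the arrays.

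Spots of a probe were averaged, arrays quantile normalized, values under 20 set to 20, and log2 values tested in R 4.3.3 by limma 3.58.1, unpaired and two-sided, with Benjamini-Hochberg adjustment over the 30990 probes whose mean signal reached 50 under at least 1 label. A call is an adjusted p under 0.05, or a fold change of at least 2 with an unadjusted p under 0.01. The brightest probe stands for a listed gene. RefSeq (GRCm38.p6) gave symbols for 31239 probes, gene lengths, neighbours and promoter windows. Probe coordinates are mm9, as per the file headers. Transcripts and exons under the probes were not analysed here. The fit was also run on simulated data with independent noise. Those data lack the pairing of arrays by experiment, so they do not show how the fit behaves with it.

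The members and all lists were chosen with earlier results of these data known. Named were all members, all neighbours, probes most like Pygm, and listed genes that were called or stood among the first 4 of a role. Some genes that this rule covers are not reported here. Only 6 arrays limit the precision, and p-values measure the spread between cultures of 1 line.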

Additional observations from a re-analysis of the deposited data

How the results depend on the processing

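Pygm differed by 3.54 on the log2 scale. The value was 2.81 with normexp background correction (offset 50), where every probe passed the signal limit, 3.15 to 3.89 when single arrays were left out, and 3.53 to 3.61 under the other alternatives. The Ntep probe ran from -1.06 to 0.13 over the single omissions. Calls among member probes numbered 3 to 4 over the single omissions and 4 under every other alternative. The genes next to Pygm gave 0 to 1 calls over the omissions and 0 otherwise.

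Other counts moved by over 1.5 times. After adjustment, 1642 probes were called. The count was 564 without a signal filter, 2484 for probes well above background on all arrays, 4292 with the replicate block, 2707 with an intensity trend, 285 with the methods' t-test and 0 to 1403 over the omissions (0 without GapmeR Ntep replicate 3, with 6116 probes at an unadjusted limma p under 0.05, or GapmeR control replicate 2, with 5072). At a fold of 2 and an unadjusted p under 0.01 it was 2520, 1457 with the t-test and 1583 to 3163 over the omissions. Pathway genes gave 4 calls, but 2 without a filter, 7 for probes well above background, 9 with the block, 9 with a trend, 2 with the t-test and 1 to 5 over the omissions. Muscle markers gave 3, but 1 without a filter, 0 of 9 for probes well above background, 5 with the block, 1 with the t-test, 1 with a variance prior over all probes (an alternative chosen after the data were seen) and 1 to 9 over the omissions. The cause was not tested. Among member probes, neighbours and the brightest probes of pathway genes and muscle markers, blocking by replicate number changed no call other than those given. Markers of other cell types and dimmer probes of listed genes were not compared in this way.

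Under the alternatives, member probes other than Pygm were read by the size of their difference, and called list genes by their call. Of 303 such values, 257 kept their call or moved by less than the spread between arrays. A further 41, all of list genes, lost a call, and 5 of member probes moved by more than that spread. None of those called changed sign. The lost calls of the second Phkb probe are not among the 41. With 3 arrays per label, smaller differences cannot be separated from the spread. For probes near background the size moved with the background correction: Myog was -2.94, -3.04 without a floor and -1.48 with normexp.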
